A study of Rattus norvegicus with 6 samples.

Results

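Long spliced circular RNAs of the rat thalamus are described here: circles whose deposited sequence was at least 1000 nt long and shorter than the stretch of genome between the ends of the circle. Of the 32445 circular RNAs (circRNAs) in the deposited table, 385 met this rule. They were set against the 31290 other spliced circles, those under 1000 nt, and a further 770 circles had a sequence as long as their genomic span. RNA came from the thalamus of 6 rats. In 3 rats both temporomandibular joints had received 50 µL injections of complete Freund's adjuvant (CFA, an oil with killed mycobacteria that provokes lasting inflammation), and in 3 rats 50 µL injections of saline. Both groups were injected 2 times a week and had the same endpoint, 14 days, and the labels give no strain, sex or age. The study asked which thalamic circRNAs differ in chronic pain of the jaw joint. Sequencing depth was 656598, 651615 and 903443 circRNA reads in CFA rats and 573696, 1176178 and 936062 circRNA reads in saline rats.

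A circRNA forms when the spliceosome joins the donor site at the end of an exon to an acceptor site upstream of it, a reaction called back-splicing. The product has no free ends and resists exonucleases, and brain is a tissue in which many circRNAs accumulate. Back-spliced exons are usually flanked by long introns, and introns between the exons of a circle are usually removed. Some long circles are single large exons and others join several exons. Certain circRNAs carry many sites for a microRNA, and a few are translated.

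Each circle is identified in the deposited sequences by the 58 nt around its back-splice junction, where the last bases of the circle meet its first. The junctions of the 3 most abundant long circles are shown because they held 44.4% of all long-circle reads, with the 5 bases on each side of the junction in capitals. The sources used here did not give the genome build of the positions. The circles lay on chromosome 9 from 94463647 to 94481167 (plus strand, 1345 nt), on chromosome 1 from 204959173 to 204961691 (plus strand, 1016 nt) and on chromosome 10 from 16724062 to 16730140 (minus strand, 1411 nt).
novel_circ_0047434: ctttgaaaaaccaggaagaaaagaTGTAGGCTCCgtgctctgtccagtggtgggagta
novel_circ_0019207: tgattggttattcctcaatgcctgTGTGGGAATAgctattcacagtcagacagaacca
novel_circ_0000371: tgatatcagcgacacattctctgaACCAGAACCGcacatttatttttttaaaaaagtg

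The second set shows 4 long circles of chromosome 1 that share the donor end at 204961691 and differ in the acceptor end. Each line runs from the last 20 nt of the circle across the junction, and the capitals mark the 16 bases that all 4 have in common after the junction. Relative to novel_circ_0019207, novel_circ_0019204 began 18 nt upstream, novel_circ_0019214 began 6 nt downstream and novel_circ_0019215 began 16 nt downstream.
novel_circ_0019204: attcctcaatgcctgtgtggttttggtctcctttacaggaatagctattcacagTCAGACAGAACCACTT
novel_circ_0019207: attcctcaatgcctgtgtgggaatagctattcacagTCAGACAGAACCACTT
novel_circ_0019214: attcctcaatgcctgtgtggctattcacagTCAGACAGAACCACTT
novel_circ_0019215: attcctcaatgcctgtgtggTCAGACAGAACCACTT

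A last set shows pairs of long circles that share an end and differ by a few bases in the position of the other end. On chromosome 3 (minus strand) novel_circ_0028552 ran from 1839763 to 1841594 and novel_circ_0028551 from 1839763 to 1841591, so the acceptor moved by 3 nt, capitals in the line of novel_circ_0028552. On chromosome 1 (plus strand) novel_circ_0021606 ran from 88586311 to 88592011 and novel_circ_0021605 from 88586311 to 88592000, so the donor moved by 11 nt, capitals in the line of novel_circ_0021606. The deposited lengths of these chromosome 1 circles were 1619 and 1511 nt, so their sequences differ by more than the 11 nt shown.
novel_circ_0028552: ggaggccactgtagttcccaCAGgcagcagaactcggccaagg
novel_circ_0028551: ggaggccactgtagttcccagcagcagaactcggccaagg
novel_circ_0021606: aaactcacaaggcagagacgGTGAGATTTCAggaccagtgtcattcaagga
novel_circ_0021605: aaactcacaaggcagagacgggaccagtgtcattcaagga

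Most long circles were only a little longer than the minimum. The median was 1281 nt and the quartiles were 1102 and 1628 nt. In all, 255 were 1000 to under 1500 nt long, 104 were 1500 to under 2500 nt and 26 were 2500 nt or more, up to the 5881 nt of novel_circ_0040183 on chromosome 7. They did not come from wider stretches of genome than shorter circles did: the median span was 9926 nt for long circles and 11574 nt for other spliced circles. The kept sequence therefore made up a median of 14.2% of the span in long circles and 3.33% in other spliced circles. Base composition was close, with a median GC content of 48.1% in long and 47.7% in other spliced circles. Lengths are as deposited, and how the authors assigned the inner exons was not given in the sources used here.

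Long circles were found on 21 chromosomes. Overlapping circles of the same strand were joined into loci, which placed the 385 long circles in 271 loci. In 74 loci there were 2 or more long circles, 188 circles in all and up to 7 in a locus. Chromosome 1 held the most, 56, or 1.77% of its circRNAs. On chromosome 11 the count was 1, or 0.101% of its circRNAs. No host genes are named, since nothing in the files used here ties an identifier to a gene, and the labelled tissue could not be checked against marker genes.

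Long circles were more often abundant than all shorter spliced circles together, but less often than the next shorter classes. Levels are given as RPM, reads per 1000000 circRNA reads of the library. Above 100 RPM on average over the 6 libraries were 59 long circles (15.3%), against 4.92% of other spliced circles, while 150 long circles (39.0%) stayed below 3 RPM, against 42.1% of others. Of circles of 800 to under 1000 nt 37.9% were above 100 RPM, and of those of 600 to under 800 nt 18.995%, with 18.5% and 9.65% below 3 RPM. Reads in all 6 libraries were found for 111 long circles (28.8%; others 25.7%) and in 1 library alone for 106 (27.5%; others 29.1%). These shares are descriptions, since circles of 1 locus are not independent of each other.

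The level did not climb steadily with length. The median level was 52.2 RPM for spliced circles of 800 to under 1000 nt (quartiles 5.63 and 161 RPM), 8.60 RPM for those of 1000 to under 1500 nt (1.51 and 60.2 RPM), 3.94 RPM for those of 1500 to under 2500 nt and 4.47 RPM for those of 2500 nt or more. Below 800 nt the medians ran upward with length, from 1.78 RPM under 250 nt through 2.68 and 7.61 RPM to 28.2 RPM at 600 to under 800 nt. The step at 1000 nt came with a larger share of scarce circles: 38.4% of circles of 1000 to under 1500 nt were below 3 RPM, against 18.5% of those of 800 to under 1000 nt.

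**Figure D1:**
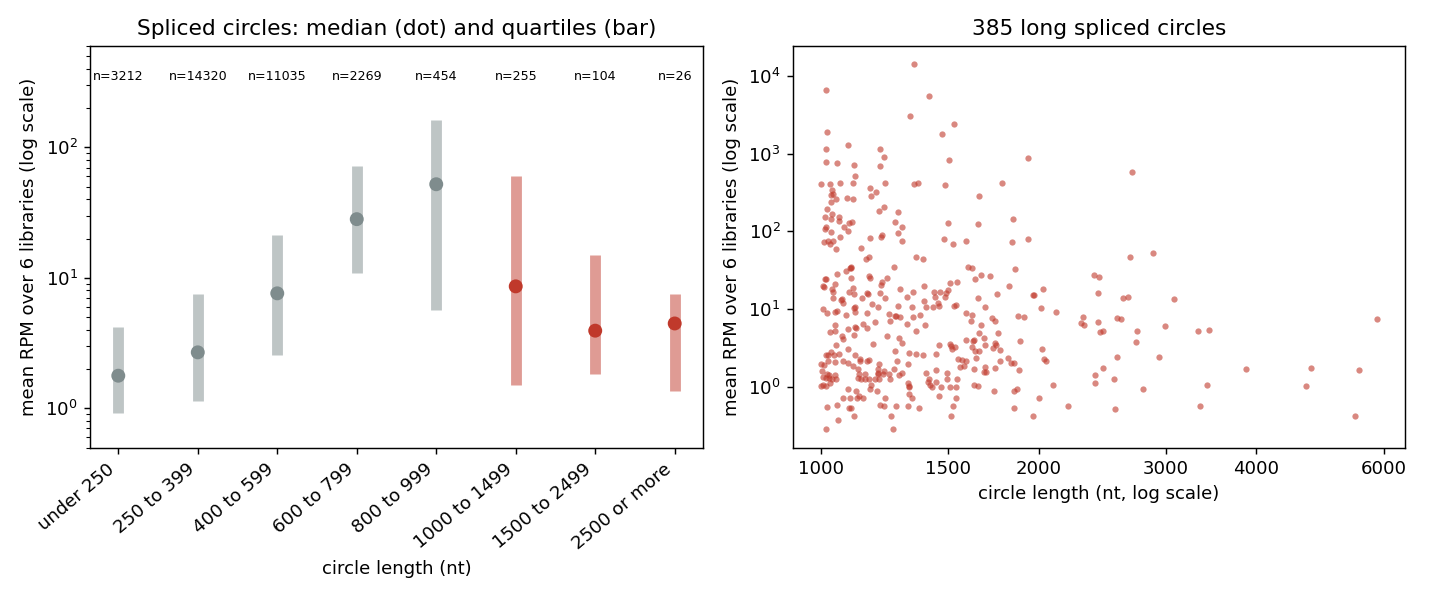
Mean RPM over the 6 libraries against circle length. Left, dots are class medians and bars are quartiles for all spliced circles, on a log scale, with the classes of 1000 nt or more in red: the median was 52.2 RPM at 800 to under 1000 nt and 8.60 RPM at 1000 to under 1500 nt. Right, each of the 385 long circles is a dot and both axes are logarithmic; the circles of over 1000 RPM were at most 1528 nt long.

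Among circles with at least 10 reads over the 6 libraries, long ones had a higher median level than all shorter ones together in every rat. This filter kept 277 of the 385 long circles and left out 108. The median level of the long circles kept was 12.2, 10.7 and 17.7 RPM in the CFA libraries and 13.9, 14.5 and 12.8 RPM in the saline libraries. For other spliced circles it was 9.14, 9.21 and 9.96 RPM in the CFA libraries and 8.72, 9.35 and 9.61 RPM in the saline libraries. On the scale of log2(RPM + 1) the difference of medians within a library, long minus other, was 0.49 ± 0.21 (SD, n = 6 libraries) and positive in 6 of 6 (exact two-sided sign-flip permutation test, p = 0.03125, the smallest possible). All 6 libraries read the same circles, so this p-value speaks only of agreement between libraries. It does not measure the spread between circles. With RPM per 1000 nt it was -1.19, a value without a test, since it divides by the length that chose the circles. The spliced circles of 800 to under 1000 nt alone were a comparison chosen after the values were seen, so no p-value is given. Against these the difference was -2.24 and negative in 6 of 6. With a minimum of 1500 nt it was -0.49 (exact sign-flip permutation test, p = 0.3125), and positive in 2 of 6. With no count filter the difference, long minus other, was 0.58 and positive in 4 of 6.

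A few long circles held most of the reads. All 385 together held 291647 reads, 5.95% of the circRNA reads of the 6 libraries. The first of them, novel_circ_0047434, held 23.7% of these and the first 12 held 69.0%. The 12 ranged from 1016 to 1932 nt. The one that shares a locus with another of the 12 was novel_circ_0040986, and the other 11 each led their locus in reads.

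The leading long circle was at a like level in all rats. It was found at 13966, 14079 and 12911 RPM in the CFA libraries and at 16225, 15093 and 13027 RPM in the saline libraries. The highest CFA value lay between the saline values, so the groups overlapped. Its log2 fold change, CFA over saline, was -0.14 ± 0.19 (SE; adjusted p = 0.9999, quasi-likelihood test of edgeR, Benjamini-Hochberg adjustment). The chromosome 1 circle novel_circ_0019207 followed with 5559, 5365 and 7986 RPM in the CFA libraries and 7480, 7430 and 5751 RPM in the saline libraries. The chromosome 10 circle novel_circ_0000371 had 5664, 3734 and 7497 RPM in CFA rats and 5738, 5409 and 5144 RPM in saline rats. For both, the highest and the lowest of the 6 values came from CFA libraries, replicate 3 and replicate 2.

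The next circles were also read at like levels in both groups. On chromosome 7, novel_circ_0040975 (1328 nt, 32922004 to 32982696, minus strand) had 3192, 2719 and 2913 RPM in CFA rats and 3498, 2574 and 3643 RPM in saline rats. The same locus and acceptor end gave novel_circ_0040986 (1224 nt, from 32949652), with 952, 442 and 1036 RPM in CFA rats and 1329.97, 996 and 713 RPM in saline rats. The spread between rats was wide for the shorter of the pair, where CFA replicate 2 was lowest. On chromosome 13, novel_circ_0006643 (1019 nt, 73615097 to 73622224, minus strand) varied least, with 2083, 1803 and 1927 RPM in CFA rats and 2029, 1838 and 1796 RPM in saline rats. On chromosome 6, novel_circ_0036595 (1932 nt, minus strand) had 818, 442 and 1150.04 RPM in CFA rats and 1238, 1173 and 541 RPM in saline rats. Over the 12, log2 fold changes ran from -0.35 to 0.03, 9 lower and 3 higher in CFA, and the smallest adjusted p was 0.9999 (quasi-likelihood test of edgeR, Benjamini-Hochberg adjustment).

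**Figure D2:**
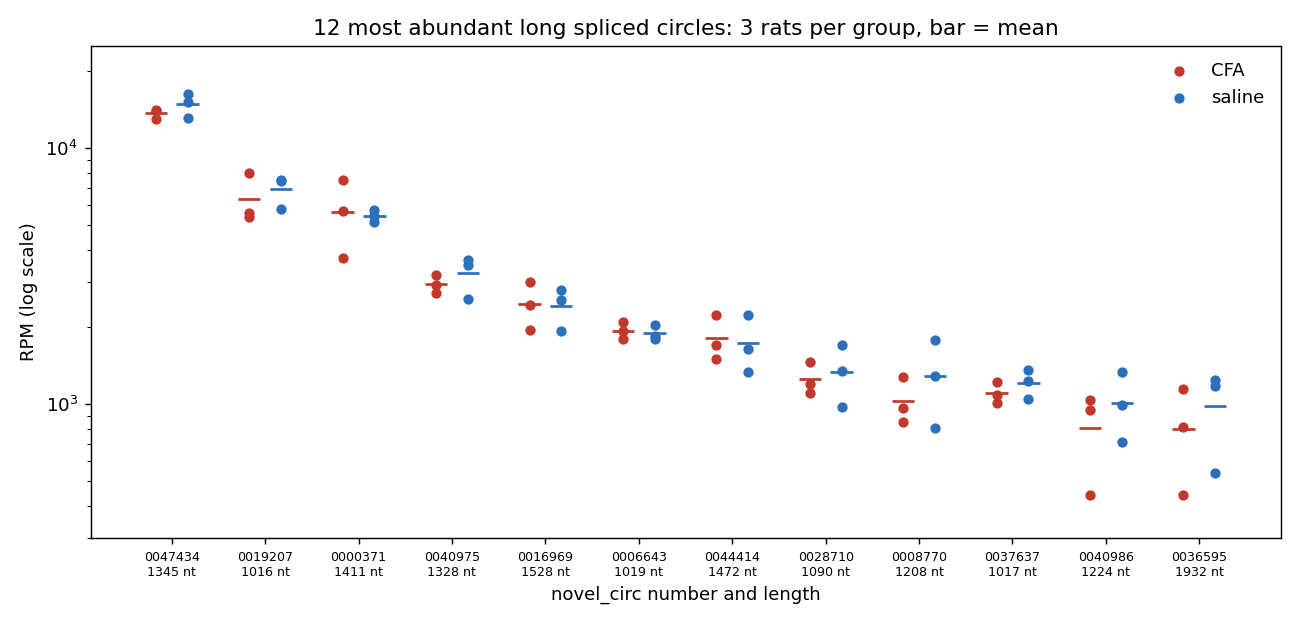
RPM per rat on a log scale for the 12 most abundant long circles, ordered by mean level, with CFA rats in red on the left and saline rats in blue on the right of each pair; short bars are means of 3 rats. The dots of both groups overlap for all 12, from about 14217 RPM for the first to about 894 RPM for the last.

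The identifier novel_circ_0036595 carries a doubt. It and novel_circ_0036596 each list 2 sequences, one of 189 nt and one of 1932 nt, with the same positions for both identifiers (chromosome 6, 105078170 to 105080571 for the longer), yet their counts differ. The first averaged 894 RPM and the second 79.6 RPM. The table does not say which sequence each count belongs to, and the 385 identifiers therefore stand for 384 distinct junctions.

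Most of the 12 abundant long circles held the larger part of the reads of their loci. Of the circRNA reads of its locus, novel_circ_0047434 held 89.3 ± 0.292% in CFA rats and 89.0 ± 1.08% in saline rats (SD over 3 rats per group), although 17 circRNAs were listed there. Among these was a second long circle with the same acceptor end, novel_circ_0047431 (1502 nt), at 838 RPM on average. The locus share of novel_circ_0006643 was 97.6 ± 0.754% in CFA rats and 97.8 ± 0.200% in saline rats. At the lower end, novel_circ_0028710 (1090 nt, chromosome 3, 21878521 to 21904269, minus strand) held 49.5 ± 3.98% in CFA rats and 49.8 ± 1.49% in saline rats, and novel_circ_0040986 held 16.5 ± 5.16% in CFA rats and 18.7 ± 4.70% in saline rats. The largest group difference among the 12 was that of novel_circ_0037637 (1017 nt, chromosome 6, 14450092 to 14490352, minus strand), with 60.5 ± 3.47% in CFA rats and 66.1 ± 2.87% in saline rats (two-sided exact permutation test, p = 0.2, adjusted p = 1 over the 12). With 3 rats against 3 this test cannot go below 0.1.

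High level and leadership of a locus went together among long circles. Of the 59 long circles above 100 RPM, 55 shared their locus with other circRNAs and 38 of these led it, while below 3 RPM 6 of 122 did. Over all long circles it was 79 of 315 (25.1%; other spliced circles 18.0%). With circles alone at their locus counted as leading, it was 38.4% at 1000 to under 1500 nt and 43.2% at 800 to under 1000 nt. Leading is defined by reads, so level and leadership are not independent measures. Ends were shared in the same graded way: 46 of the 59 above 100 RPM shared both back-splice ends with other circRNAs, against 31 of the 150 below 3 RPM. A whole other circRNA lay inside 109 long circles, up to 5 in 1 circle, and 70 long circles (18.2%; others 12.985%) were alone at their locus.

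The chromosome 1 circle novel_circ_0019207 stood in a family with 1 common donor and several acceptors. With the acceptor 18 nt upstream, novel_circ_0019204 (1034 nt) had 225, 275 and 379 RPM in CFA rats and 333, 281 and 283 RPM in saline rats. The acceptor 18 nt upstream thus took 3.90, 4.87 and 4.53% of the reads of novel_circ_0019204 and novel_circ_0019207 in the CFA libraries and 4.26, 3.64 and 4.69% in the saline libraries. The means were 4.43 ± 0.494% in CFA rats and 4.197 ± 0.529% in saline rats (SD over 3 rats per group; two-sided exact permutation test, p = 0.6). The variants 6 and 16 nt downstream were scarce. Of these, novel_circ_0019214 had 6 reads in each of saline replicates 2 and 3 and 0 elsewhere. The other, novel_circ_0019215, had 4 reads in CFA replicate 1 and 0 elsewhere. Further downstream, by 1668 nt, began novel_circ_0019218 (851 nt, as long as its genomic span), which averaged 473 RPM. In the printed sequences the bases AG stood just before the start of novel_circ_0019207, novel_circ_0019214 and novel_circ_0019215, the letters found at the end of most introns.

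**Figure D3:**
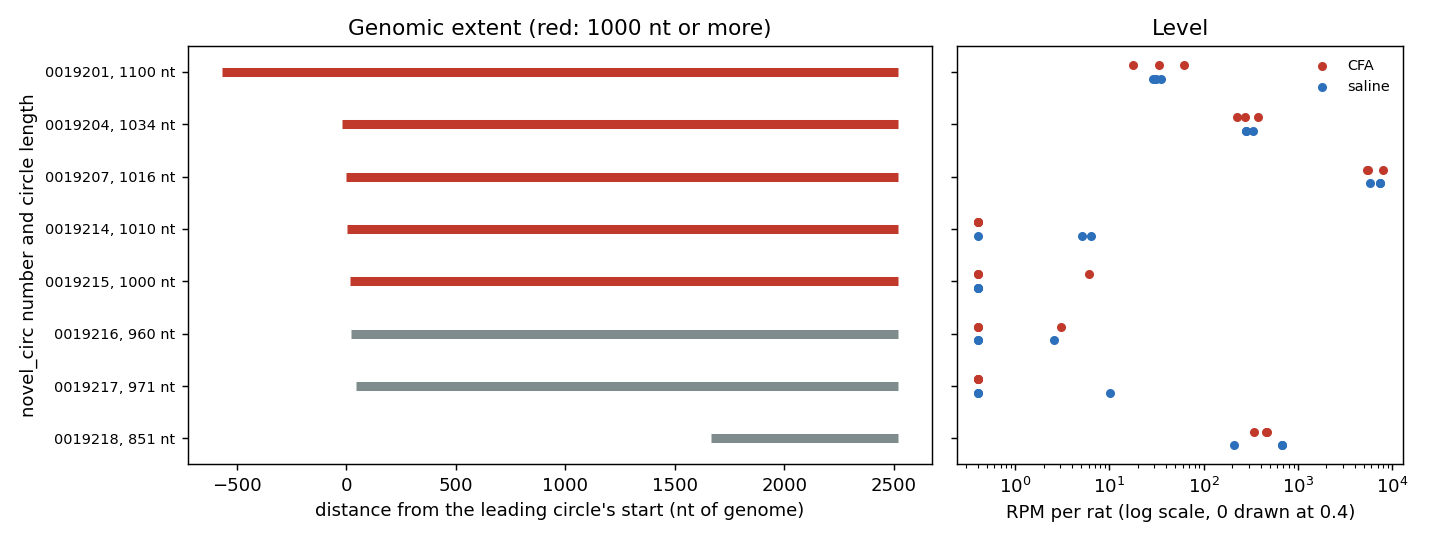
The 8 circRNAs of chromosome 1 that share 1 donor end. Left, genomic extent as distance from the start of novel_circ_0019207, with circles of 1000 nt or more in red; right, RPM per rat on a log scale (CFA red and above, saline blue and below, 0 drawn at 0.4). The leading circle averaged 6595 RPM, the one 18 nt longer 296 RPM, and the variants 6 and 16 nt shorter 1.92 and 1.02 RPM. At the same donor the 851 nt circle novel_circ_0019218 averaged 473 RPM.

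Near-identical ends of this kind were seen in 20 long circles, forming 13 pairs that shared 1 end and had the other within 30 nt. The added bases of the longer partner ended in AG in 9 of 9 acceptor pairs and began with GT, the usual first letters of an intron, in 4 of 4 donor pairs. Several pairs repeat the same sites with another partner end, so these are 7 distinct acceptor site pairs and 2 distinct donor site pairs. The sources used here do not say whether the caller required such letters. The shift was 3 nt in 4 pairs. At the chromosome 3 site printed above, novel_circ_0028552 had 49, 36 and 84 reads in CFA rats and 65, 68 and 39 in saline rats, and novel_circ_0028551 had 6, 8 and 24 in CFA rats and 15, 35 and 14 in saline rats. The circle that starts with the extra CAG was read more often in all 6 libraries. Another pair used the same 2 acceptors with a different donor, and there novel_circ_0028550, with the CAG, averaged 16.5 RPM and novel_circ_0028549, without it, 0.922 RPM.

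The richest family of long circles lay on chromosome 1 near 88586311 on the plus strand and held 7. Of these, 3 used the donor 11 nt further downstream and 4 the nearer one. The further donor took 90.0, 81.0 and 86.3% of the family's reads in the CFA libraries and 70.8, 84.5 and 76.5% in the saline libraries. The means were 85.8 ± 4.55% in CFA rats and 77.3 ± 6.87% in saline rats (SD over 3 rats per group; two-sided exact permutation test, p = 0.2), and the groups overlapped. These shares rest on 40 to 142 reads per library.

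The share of reads in long circles overlapped between the groups. In bulk tissue, fewer cells of a type and less of an RNA per cell cannot be told apart. Their share was 5.72, 5.45 and 6.25% of circRNA reads in the CFA libraries and 6.39, 6.12 and 5.71% in the saline libraries, or 5.81 ± 0.406% in CFA rats and 6.07 ± 0.342% in saline rats (SD over 3 rats per group; two-sided exact permutation test, p = 0.5). Without CFA replicate 3, the CFA library whose column is named with a different first letter, the difference was -0.49 percentage points, against -0.27 with all libraries (exact permutation test, p = 0.3). It was -0.45 without saline replicate 3, -0.11 without saline replicate 1, -0.090 without CFA replicate 2 and -0.037 with every circRNA capped at 1000 RPM. The meaning of that letter was not given in the sources used here. Of the circRNAs seen in a library, long circles made up 1.19, 1.16 and 1.23% in CFA rats and 1.31, 1.24 and 1.27% in saline rats. Every CFA value lay below every saline value (two-sided exact permutation test, p = 0.1, the smallest possible), with a difference of means of -0.0814 percentage points. This difference was -0.0824 with libraries thinned to the smallest and -0.0487 with a length minimum of 1500 nt (exact permutation tests, p = 0.1 for each). The groups overlapped when only circles with at least 5 reads counted as seen (-0.0970 percentage points; exact permutation test, p = 0.2), and with a length minimum of 800 nt the difference was -0.0039 percentage points (exact permutation test, p = 1). Thinned to the depth of the smallest library, 208 ± 27.9 long circles were seen in CFA rats and 236 ± 36.8 in saline rats (SD over 3 rats per group; two-sided exact permutation test, p = 0.3).

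**Figure D4:**
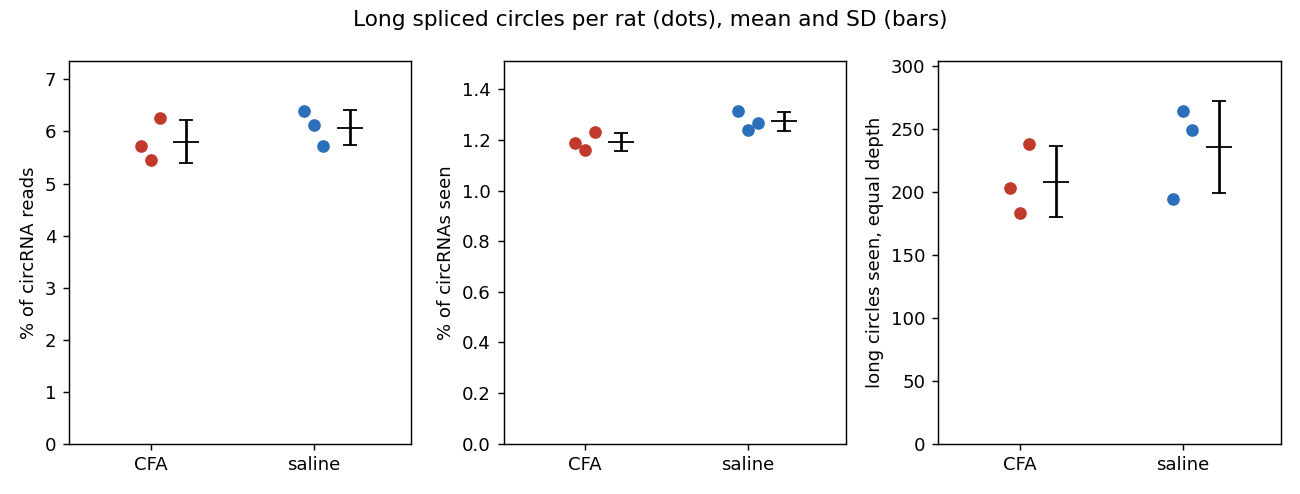
Long spliced circles per rat, CFA on the left and saline on the right of each panel, as percent of circRNA reads, percent of circRNAs seen and number seen at equal depth; dots are rats, and the bar beside them is the mean with its SD. The groups overlap in the percent of reads and in the number seen, while in the percent of circRNAs seen the CFA rats reach 1.23% and the saline rats start at 1.24%.

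No long circle was called different between CFA and saline. Of the 277 tested, 0 passed an adjusted p of 0.05, where 28 of all 22426 circRNAs tested did (0.125%, made up of 0.0624% higher and 0.0624% lower). At an unadjusted p of 0.05, 5 long circles passed in the quasi-likelihood test of edgeR, 3 higher and 2 lower, or 1.81% against 2.68% of all circRNAs tested (1.23% higher and 1.45% lower), and in DESeq2 4 passed, with 0 called after adjustment. The values of both groups did not overlap in 14 long circles (5.05%; 6.63% of all circRNAs tested), 6 higher and 8 lower (3.21% and 3.42% of all circRNAs tested). The median log2 fold change was -0.14 over the long circles tested and -0.05 over all circRNAs tested, and 40.4% of long circles were above 0, against 47.5% of all. This lean was smaller with stricter filters: with at least 30 counts the long median was -0.051 and 47.4% were above 0 (48.4% of all), and with filterByExpr -0.013 and 47.7% (48.9% of all). It also moved with single libraries, to -0.39 and 31.8% above 0 without CFA replicate 3 and to -0.049 and 45.3% without saline replicate 2. CFA libraries held fewer reads in all than saline libraries. No CFA reads were held by 27 long circles tested and no saline reads by 6 (9.75% and 2.17%). Over all circRNAs tested these shares were 7.34% and 3.82%. Of the 27, 9 were read in saline replicate 2 alone, the library with the most reads. Circles of this kind made up 3.25% of long circles tested and 1.63% of all circRNAs tested.

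The precision was highest for abundant long circles. Above 100 RPM, 55 of 59 had a log2 fold change within 0.5 of 0 (93.2%; 90.0% of all 1705 circRNAs above 100 RPM), at a median SE of 0.32. Their log2 fold changes ran from -0.79 to 0.69, with 24 above 0 and 35 below. The SEs of these 59 ran from 0.19 to 1.74, so a value within 0.5 of 0 does not show that a circle was unchanged. Below 100 RPM the median SE was 1.68, so for many scarce long circles even differences of several fold were not detectable at this depth.

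**Figure D5:**
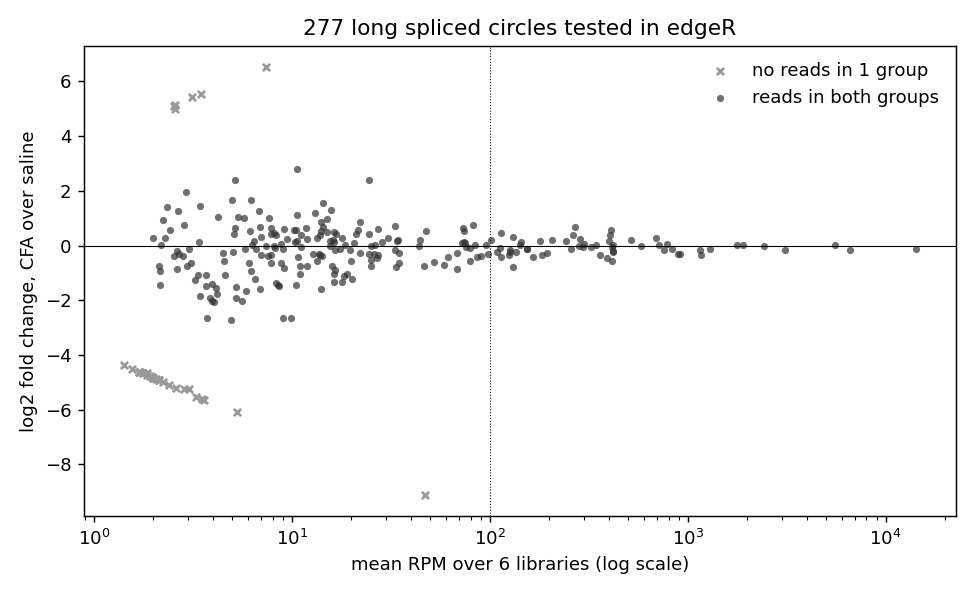
Log2 fold change, CFA over saline, against mean RPM (log scale) for the 277 long circles tested; crosses are circles without reads in 1 group, whose fitted values depend on the prior count, and the dotted line marks 100 RPM. To the right of that line the values lie between -0.79 and 0.69, and to the left they fan out to both sides.

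The clearest separation among abundant long circles was that of novel_circ_0036590, a 1267 nt circle of chromosome 6 (104895383 to 104907136, minus strand). In CFA rats its reads numbered 62, 59 and 97, or 94.4, 90.5 and 107 RPM, and in saline rats 92, 186 and 164, or 160, 158 and 175 RPM. The groups did not overlap, and each varied little. The log2 fold change was -0.79 ± 0.38 (SE) and it did not pass (adjusted p = 0.912, quasi-likelihood test of edgeR, Benjamini-Hochberg adjustment). Its sign held in the 14 other fits, at -0.89 to -0.71. It held 89.6% of the reads of its locus.

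Toward higher values in CFA, novel_circ_0025575 had the smallest p. This 1014 nt circle of chromosome 2 (26590643 to 26650618, minus strand) had 6, 32 and 61 reads in CFA rats and 4, 18 and 0 in saline rats. CFA replicate 1 lay below saline replicate 2, so the groups overlapped. The log2 fold change was 2.40 ± 0.72 (SE; adjusted p = 0.374, quasi-likelihood test of edgeR, Benjamini-Hochberg adjustment). Without saline replicate 2 it was 3.77 and passed (adjusted p = 0.0355, quasi-likelihood test of edgeR, Benjamini-Hochberg adjustment), the smallest of the 6 fits that each leave out a library, where the largest was 0.99988.

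Several other circles with a small p had 1 library well above the rest. On chromosome 2, novel_circ_0025972 (1086 nt, 3809213 to 3860857, plus strand) had 95, 438 and 184 reads in CFA rats and 76, 145 and 319 in saline rats. Its log2 fold change of 0.69 ± 0.35 became -0.21 without CFA replicate 2. The 1000 nt circle novel_circ_0017875 of chromosome 1 (151218854 to 151226199, plus strand) had 308, 723 and 454 RPM in CFA rats and 368, 314 and 299 RPM in saline rats, with CFA replicate 2 again highest and a positive log2 fold change in each of 14 other fits. In novel_circ_0042095 (2596 nt, chromosome 7, 97354505 to 97358548, minus strand) all 29 reads came from CFA replicate 2. A different pattern was that of the 3320 nt circle novel_circ_0043251 of chromosome 8 (21380266 to 21383633, minus strand), which is listed at 0 in the 3 CFA libraries and had 12, 9 and 3 reads in saline rats (unadjusted p = 0.0329, adjusted p = 0.912, quasi-likelihood test of edgeR, Benjamini-Hochberg adjustment). The lowest count above 0 in the table is 2, so a listed 0 may be 1 read.

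The remaining circles named by the same rule were rarer. Toward higher values, novel_circ_0030975 had 19.1 ± 13.7 RPM in CFA rats and 2.27 ± 3.93 RPM in saline rats, and novel_circ_0004929 6.92 ± 7.71 RPM in CFA rats and was listed at 0 in saline rats (SD over 3 rats per group). Toward lower values, novel_circ_0000510, novel_circ_0021625, novel_circ_0011062 and novel_circ_0021603 were listed at 0 in the CFA libraries and averaged 5.74 to 7.17 RPM in saline rats. Each of those 4 also had 1 saline library at 0. The adjusted p was 0.912 for these 6 circles (quasi-likelihood test of edgeR, Benjamini-Hochberg adjustment).

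The longest circles with appreciable levels lay on chromosomes 2 and 9. The most abundant of them was novel_circ_0045919 (2691 nt, chromosome 9, 1875552 to 1880538, minus strand), the sole circRNA of its locus. This circle had a reading frame without a stop codon along its deposited sequence. It had 557, 691 and 507 RPM in CFA rats and 781, 548 and 413 RPM in saline rats, or 585 ± 94.9 RPM in CFA rats and 581 ± 186 RPM in saline rats (SD over 3 rats per group). The CFA values all lay within the saline range. On chromosome 2 a pair of donor ends met 1 acceptor end, and novel_circ_0026720 (2883 nt) had 62.4, 4.604 and 54.2 RPM in CFA rats and 113, 55.3 and 23.5 RPM in saline rats. The inner novel_circ_0026721 (3076 nt) was read in CFA replicate 3 and saline replicate 3 alone, with 44.3 and 36.3 RPM. On chromosome 9, novel_circ_0046638 (2679 nt) had 56.9 ± 11.98 RPM in CFA rats and 38.0 ± 12.6 RPM in saline rats, and novel_circ_0046639 (2661 nt), with the same acceptor, 17.9 ± 4.29 RPM in CFA rats and 10.96 ± 1.296 RPM in saline rats. Neither passed (adjusted p = 0.9999, quasi-likelihood test of edgeR, Benjamini-Hochberg adjustment).

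Circle lengths ran on without a gap across the length minimum. Just inside it lay novel_circ_0017875 and novel_circ_0019215 (1000 nt, 411 and 1.02 RPM on average) and novel_circ_0004561 (1001 nt, 1.959 RPM). Just outside lay novel_circ_0035115 (994 nt, 60.7 RPM), novel_circ_0040732 (995 nt, 29.6 RPM) and novel_circ_0047744 (998 nt, 3.04 RPM).

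A reading frame without a stop codon along the deposited sequence was searched for in each circle. Whether such a frame runs on across the junction and around the whole circle was not tested. In sense it was found in 149 long circles (38.7%) and in 50.3% of other spliced circles. The lower share was not particular to long circles, since it was 35.5% at 800 to under 1000 nt and 47.4% at 600 to under 800 nt. In the reverse direction, a background for such frames, it was found in 0 long circles and 6.37% of other spliced circles. Among long circles it was rarer at high levels, with 15 of 59 above 100 RPM (25.4%), 72 of 176 at 3 to 100 RPM (40.9%) and 62 of 150 below 3 RPM (41.3%). Lengths divisible by 3 made up 36.9% of long circles and 34.5% of other spliced circles. Such a frame does not show translation.

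MicroRNA seed matches were frequent per long circle but close to those of shorter circles per length. The seeds, bases 2 to 8, of 15 microRNA families were searched around each circle, the junction included. A search for miR-124 was planned but not made, since its sequence was not in the sources used here. At least 1 match was found in 85.2% of long circles and 43.3% of other spliced circles, but per 1000 nt there were 1.601 matches in long and 1.47 in other spliced circles. The density ratio, long over other, ran from 0.725 for miR-223, a microRNA of myeloid cells, to 1.65 for miR-125, a microRNA abundant in neurons. For miR-128 it was 1.25. A site can be counted in several circles of 1 locus, and 184 long circles shared at least 40 nt with another of their locus. A miR-125 match, the letters CTCAGGG, was held by 19.5% of long circles and 3.57% of other spliced circles, and a miR-128 match, CACTGTG, by 23.6% of long and 5.83% of other spliced circles. The mature sequences of both (RefSeq, GRCr8), shown because their matches were the most repeated within a long circle, have their seeds in capitals.
rno-miR-125b-5p: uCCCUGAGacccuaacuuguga
rno-miR-128-3p: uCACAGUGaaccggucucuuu

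The circles richest in these matches were scarce. With 4 miR-125 matches, novel_circ_0014436 (1198 nt) was read in CFA replicate 1 alone, at 6 reads. With 4 miR-128 matches, novel_circ_0043251 averaged 5.30 RPM. The leading circle novel_circ_0047434 had 1 match for miR-9 and 1 for miR-21, and novel_circ_0019207 had 1 for miR-29. Of abundant circles, novel_circ_0009951 (1111 nt, chromosome 15, 2849126 to 2867333, minus strand) held 3 matches for miR-9, a microRNA of neural progenitors and neurons. It had 539, 844 and 825 RPM in CFA rats and 654, 753 and 695 RPM in saline rats, with the saline values inside the CFA range. A match does not show binding.

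Some long circles that were well read elsewhere were missing from a library. Where the median of the other 5 libraries reached 50 RPM, 4 of 468 values were 0. This count was not made for other circRNAs, so it does not set long circles apart. The most abundant case was novel_circ_0045930 (1107 nt, chromosome 9, 20596863 to 20599410, minus strand), with 0, 183 and 663 reads in CFA rats and 271, 763 and 334 in saline rats. CFA replicate 1 was the sole library without it, and it held 96.8% of the reads of its locus over the 6 libraries. A listed 0 in CFA replicate 1 also stood for novel_circ_0023569, in CFA replicate 2 for novel_circ_0048014 and in saline replicate 2 for novel_circ_0025367.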

How the data were processed

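Thalamus RNA of 6 rats was sequenced, 3 after CFA and 3 after saline, and groups were taken from the sample titles. Poly-T beads, heat fragmentation, random hexamer priming and PCR are described per the labels' protocols. A bead selection of this kind can lose circRNAs, which lack a poly(A) tail, and no RNase R step is named. The submitters' processing notes name DESeq2 1.20.0, featureCounts 1.5.0-p3, StringTie 1.3.3b and HISAT2 2.0.5. The genome build, the circRNA caller with its filters, and whether a count holds junction reads alone were not given in the sources used here.

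A read count per circRNA and library was deposited by the authors and used for all tests. Per the file headers a second value is named TPM, but it has no length term and is RPM. Printed RPM are counts over the summed counts of a library. A deposited sequence file gave position, strand, spliced sequence and junction, and 1 was added to starts counted from 0. Where an identifier had several entries, any that met the length rule counted.

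edgeR 4.0.16 (R 4.3.3) was run on all 22426 circRNAs with at least 10 counts over the 6 libraries, with TMM normalization and a robust quasi-likelihood fit, CFA against saline without covariates, and Benjamini-Hochberg adjustment at 0.05. SEs are approximate, each log2 fold change being divided by the root of F. DESeq2 1.42.0 was an alternative. Scripts were tested on simulated data. Shares and levels per library were compared with exact permutation tests in Python 3.11.15 with numpy 2.4.6, pandas 2.3.3 and scipy 1.17.1, with 20 thinnings for numbers seen. Libraries held between 573696 and 1176178 circRNA reads. Without molecular identifiers PCR copies cannot be told apart, so intervals from counting alone would be too narrow. The series text describes separate rats.

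Named circles were the 12 most abundant long circles, any past the threshold, the 6 per direction with the smallest p, the 5 longest with at least 10 RPM and 3 on each side of the length minimum. Others were chosen after their values were seen. The members and lists were chosen with earlier results of these data known. Lists of host genes were planned but not analysed here, since identifiers could not be paired with genes. Over long circles, deviations of same-numbered libraries from their group means were unrelated (r = -0.05, -0.03 and -0.01), so the numbers were not taken as pairs.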

Additional observations from a re-analysis of the deposited data

How the results depend on the processing

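The absence of calls among long circles was the same in 9 alternatives of normalization, filter, tool and length and in 5 of the 6 fits that leave out a library. The fit that is not robust and the fit with the replicate block each called 1, novel_circ_0033004, with 162 reads in saline replicate 1 and 0 in the other 5 libraries. Leaving out a library gave 0 to 2 calls. The 2 arose without saline replicate 2: novel_circ_0025575 and novel_circ_0017556 (34, 5 and 26 reads in CFA rats, and 0, 70 and 0 in saline rats). The replicate block changed no other call, and the numbers were not taken as pairs. The level difference, long minus other, was -0.49 with a minimum of 1500 nt, -1.19 per 1000 nt and -2.24 against circles of 800 to under 1000 nt, and with no count filter it was 0.58 (exact permutation p = 0.125). Leaving out a library gave 0.43 to 0.55, each at the smallest exact permutation p for 5 libraries, 0.0625. The CFA minus saline difference of this measure, -0.08, lay between -0.24 and 0.049 without 1 library, and was above 0 without CFA replicate 2. Log2 fold changes near 0 changed sign: novel_circ_0000371 was -0.033 with the replicate block, novel_circ_0016969 was 0.0074 with RLE, 0.021 with total counts and 0.0065 in DESeq2, and novel_circ_0045919 was 0.017 with RLE, 0.011 with total counts, 0.0073 with at least 30 counts, 0.018 in DESeq2 and 0.016 with the block. Without 1 library, novel_circ_0000371 ran from -0.26 to 0.28, novel_circ_0016969 ran from -0.21 to 0.12, novel_circ_0006643 ran from -0.054 to 0.089, novel_circ_0044414 ran from -0.18 to 0.25, novel_circ_0028710 ran from -0.29 to 0.12, novel_circ_0008770 ran from -0.59 to 0.014, novel_circ_0036595 ran from -0.68 to 0.015, novel_circ_0025972 ran from -0.21 to 1.38, novel_circ_0026721 ran from -6.35 to 6.61 and novel_circ_0045919 ran from -0.18 to 0.19. Of 395 values of named circles, 366 kept their direction and their side of the threshold and 28 changed sign. Why these values moved was not tested. With 573696 to 1176178 reads per library and no count of 1, circles below about 3 RPM are at the limit of what was read.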
